A study of Mus musculus with 10 samples.

Results

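The insulin-like growth factor (IGF) system of the mouse testis was described here as 10 genes: the ligands Igf1 and Igf2, the receptors Igf1r and Igf2r, and the binding proteins Igfbp2 to Igfbp7. Its members were the probe sets that the platform annotation assigned to a single gene of this list. All 10 genes were found, on 23 probe sets, among 12393 genes on the array that had a probe set of their own. The arrays compared SCARKO testes, in which androgen responsiveness is lost selectively in Sertoli cells, with control testes of AMHCre mice, in which the anti-Müllerian hormone promoter drives Cre in Sertoli cells. The mice were 10 days old, untreated as far as the labels say, and each array held 1 pool of RNA from 1 whole testis of each of 3 mice. There were 5 SCARKO pools and 5 control pools, matched as 5 littermate pairs, and the spread given is the spread between pools. SCARKO is a cell-type-selective model, so other testicular cells keep their androgen response.

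IGF-1 and IGF-2 are secreted growth factors that act through the IGF-1 receptor, a tyrosine kinase, and its close relative the insulin receptor. The IGF-2 receptor, which also carries mannose 6-phosphate-tagged enzymes to lysosomes, clears IGF-2. Binding proteins hold IGFs in the fluid around cells, and proteases such as PAPP-A release them by cutting the binding protein. In the testis, IGF-1 is made by several somatic cell types and signalling through the insulin and IGF-1 receptors is needed for Sertoli cells to multiply before puberty.

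Titles and descriptions of the arrays disagreed on genotype. For the 8 arrays of pairs 1 to 4 the descriptions gave the opposite genotype, and for pair 5 both gave 1 genotype per array. The titles were followed, so every direction rests on them, and the value in pair 5, on which both agree, is given for each called gene. Rhox5, a homeobox gene that depends on androgen in Sertoli cells, had signals of 7.9 to 12.7 in SCARKO pools, against 86.6 to 241.4 in control pools. In pair 5 it read 9.7 in the SCARKO pool and 212.1 in the control pool. In pairs 1 to 4 it was near 9.7 in pools titled SCARKO and far above it in pools titled control. Rhox5 thus sorted these 8 arrays as the titles do. The knocked-out gene itself is not reported here. The values were linear signal intensities without a counting depth, with a median per array of 36.4 to 37.6. Ratios of 3′ to 5′ signal, a measure of RNA integrity, were 0.618 to 0.657 in SCARKO pools and 0.611 to 0.640 in control pools for Gapdh, and 1.16 to 1.32 against 1.21 to 1.30 for beta-actin.

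SCARKO removes, in Sertoli cells only, a signal that can act on promoters and enhancers. Which testicular cells gave the Igfbp3 and Igf1 signals was not tested. As a description, the promoters are shown of Igfbp3, the member that changed by its brightest probe set, and Igf1, which changed by another probe set. Each is the 250 bases before the gene's start in RefSeq annotation of GRCm38.p6, 5′ to 3′ on the gene's strand, with CG dinucleotides in capitals. The Igfbp3 window lies at chr11:7213924-7214173 on the minus strand and the Igf1 window at chr10:87860861-87861110 on the plus strand.
Igfbp3: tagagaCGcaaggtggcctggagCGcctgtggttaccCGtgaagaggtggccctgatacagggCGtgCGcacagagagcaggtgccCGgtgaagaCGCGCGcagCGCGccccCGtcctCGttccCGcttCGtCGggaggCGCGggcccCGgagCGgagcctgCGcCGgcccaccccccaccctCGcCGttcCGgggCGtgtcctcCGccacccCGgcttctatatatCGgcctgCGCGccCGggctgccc
Igf1: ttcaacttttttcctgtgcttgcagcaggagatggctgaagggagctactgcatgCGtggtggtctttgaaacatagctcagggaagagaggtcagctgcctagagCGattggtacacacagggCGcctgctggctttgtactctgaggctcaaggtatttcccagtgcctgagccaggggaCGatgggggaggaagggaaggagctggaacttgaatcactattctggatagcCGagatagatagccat
The Igfbp3 window was rich in CG dinucleotides, with 32 and a GC content of 73.2%, while the Igf1 window held 5 and 52.8%. The median over all 32851 windows of this length was 6 and 52.4%.

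Neither window held AGAACA, the half-site of androgen response elements, on either strand (TGTTCT on the other). All 10 members matched the promoter table, with 14 windows, and the letters occurred in 1 window each of Igfbp2 and Igf2. They occurred in 16.1% of all windows, and the match is a description of these bases only. The stretches below show the half-site in capitals, 206 bases before the start of Igfbp2 (chr1:72824265-72824288, plus strand) and 85 bases before 1 start of Igf2 (chr7:142666887-142666910, minus strand).
Igfbp2: aaccagggaAGAACAgaggggtcc
Igf2: attctattgTGTTCTgaaggccat

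The comparison of SCARKO with control pools asks which parts of the IGF system differ when Sertoli cells cannot respond to androgen before puberty. Igfbp3, the main carrier of IGFs in blood, rose 1.33-fold in SCARKO testes, and no other member was called by its brightest probe set. A second Igf1 probe set was 1.18-fold lower in SCARKO, with every SCARKO pool below every control pool, while the brightest Igf1 probe set was not called. Likewise 1 of 6 Igfbp4 probe sets was called higher, but not the brightest. Both IGF receptors, Igf2 and the binding proteins Igfbp2, Igfbp5, Igfbp6 and Igfbp7 were not called. Among partners and proteases of IGF binding proteins and relatives that share a domain with them, Pappa, Htra1, Ccn1 and Ccn2 rose.

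Calls were made with limma on log2 signals with the littermate pair as a block, at a Benjamini-Hochberg adjusted p under 0.05 over the 13576 probe sets that passed a filter on dim signals. Of the 23 member probe sets, 18 passed it, and every member kept at least 1. By the brightest probe set of each gene, 1 of 10 members was called higher and 0 lower, with 2 at an unadjusted p under 0.05. Among all 7973 genes, 2.17% were called higher and 3.52% lower, and 21.7% had an unadjusted p under 0.05. By probe set, 2 of 18 were called higher and 1 of 18 lower, where 1.93% of all kept probe sets were called higher and 3.26% lower. Counts this small give no ground to set the IGF system apart from other genes. The median log2 fold change of the members was 0.07, against 0.015 over all genes. Without the filter on dim probe sets, Igfbp3, the called probe sets of Igf1 and Igfbp4, and Pappa, Htra1, Ccn1, Ccn2, Gsk3a and Socs2 lost their calls (adjusted p = 0.052 to 0.24). These were whole testes, in which fewer cells of a type and less RNA per cell cannot be told apart.

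**Figure D1:**
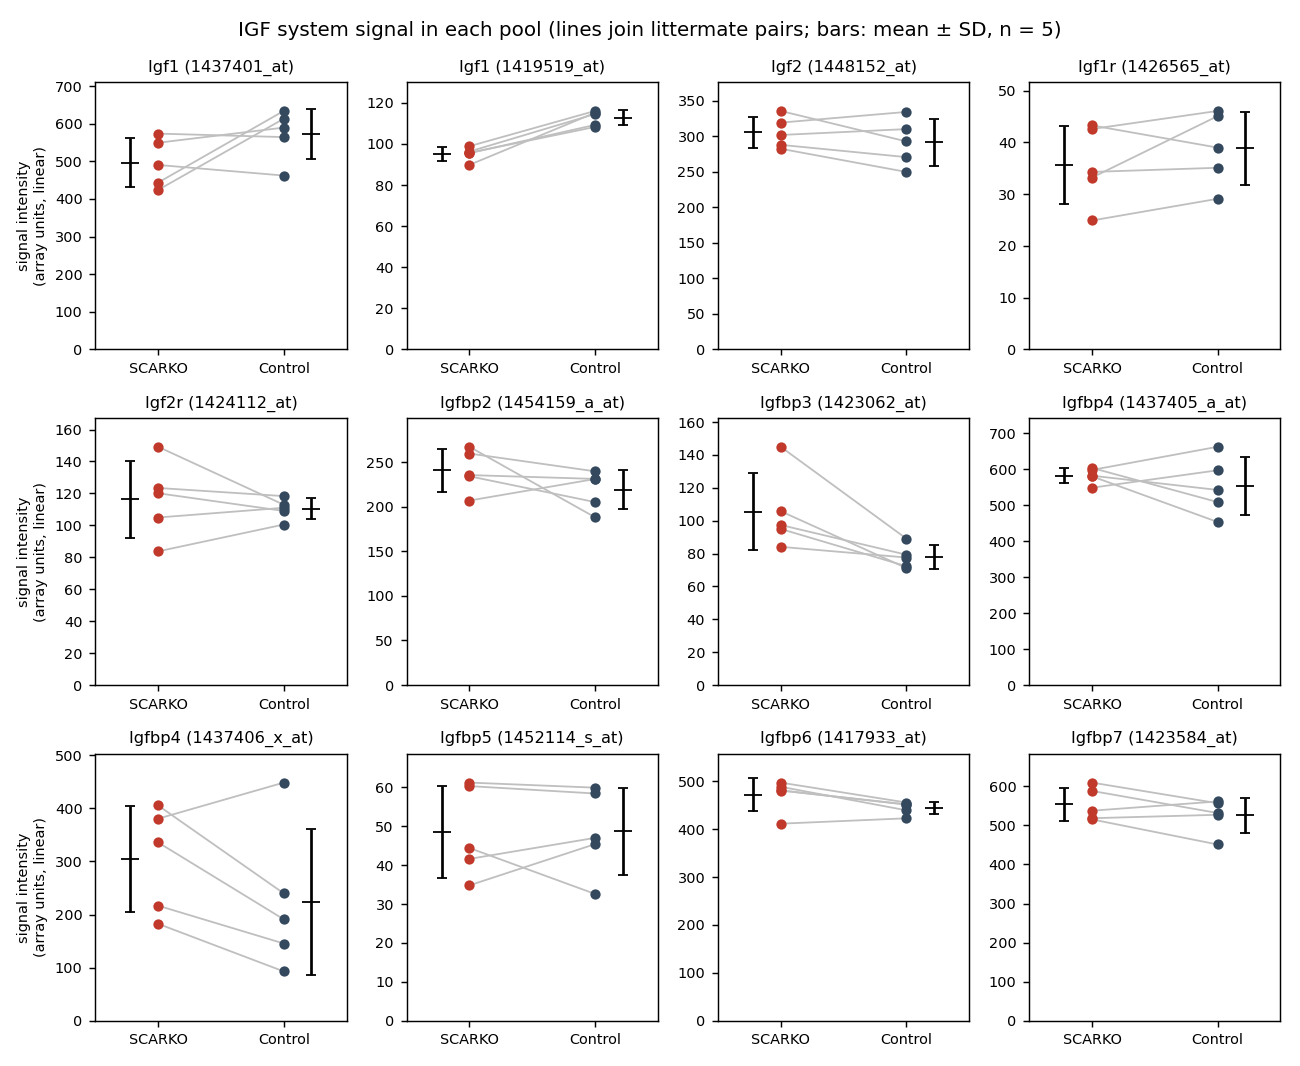
Signal intensity (linear array units) of each member's brightest kept probe set and of the called second probe sets of Igf1 and Igfbp4, with SCARKO pools on the left and control pools on the right. Grey lines join littermate pairs and bars give the mean ± SD (n = 5); Igf1 probe set 1419519_at separates the groups, and Igfbp3 is higher in SCARKO in all 5 pairs.

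Among the ligands, Igf1 (gene ID 16000) had 3 kept probe sets that differed in their outcome. Probe set 1437401_at, the brightest, read 549.8, 490.6, 574.1, 443.6 and 424 in SCARKO pools 1 to 5, against 590.1, 462.4, 564.8, 634.5 and 613.7 in control pools 1 to 5. SCARKO pools 4 and 5 were the lowest of all, while SCARKO pools 2 and 3 lay above their control littermates, so the groups overlapped. The log2 fold change was -0.21 (SE 0.087, limma adjusted p = 0.20), with lower values in 3 of 5 pairs.

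Probe set 1419519_at of Igf1 read 95.5, 95.7, 98.9, 89.8 and 96.3 in SCARKO pools, against 109.3, 108.3, 116.1, 115.2 and 114.6 in control pools. The groups did not overlap, as for 2.48% of all kept probe sets with SCARKO lower, and the mean was 95.2 ± 3.33 in SCARKO and 112.7 ± 3.62 in control pools (SD, n = 5 each). It fell by 0.24 on the log2 scale (SE 0.061, limma adjusted p = 0.0445), in all 5 pairs and by 0.25 in pair 5. Leaving out any 1 pair ended the call, at an adjusted p of 0.059 to 0.13. Probe set 1452014_a_at had a log2 fold change of -0.04 (SE 0.11, limma adjusted p = 0.87), with 56.4 to 73 in SCARKO and 55.7 to 82.9 in control pools.

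Igf2 (gene ID 16002), an imprinted fetal growth factor, read 319.3, 282.5, 301.9, 288 and 335.8 in SCARKO pools and 334.4, 249.8, 310.2, 270.7 and 292.8 in control pools by probe set 1448152_at. The ranges overlapped widely, and the fold change was 1.05 (95% interval 0.968 to 1.14, limma adjusted p = 0.49). Its other probe set was dim and not tested, at 1.1 to 8.5 in SCARKO and 3.2 to 5.5 in control pools.

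Neither receptor was called. Igf1r (gene ID 16001), which encodes the tyrosine kinase that transmits both ligands' signals, read 42.6, 24.9, 43.3, 33.2 and 34.3 in SCARKO pools and 46.1, 29.1, 39, 45.1 and 35.1 in control pools. Values were low in both pools of pair 2, and 4 of 5 pairs were lower in SCARKO, with a fold of 0.912 (95% interval 0.777 to 1.07, limma adjusted p = 0.52). Its second probe set was too dim to test, at 9.1 to 12.3 in SCARKO and 8.1 to 11.7 in control pools.

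Igf2r (gene ID 16004), the clearance receptor for IGF-2, read 149.2, 123.4, 120.1, 104.9 and 83.7 in SCARKO pools and 112.9, 118.3, 109, 111 and 100.5 in control pools. The SCARKO pools spread more widely, on both sides of the control pools, with an SD of 24.2 against 6.50. The fold was 1.04 (95% interval 0.908 to 1.18, limma adjusted p = 0.79), and 0.983 (0.809 to 1.20) for its second probe set, for which SCARKO pools ranged from 31.4 to 61.4 and control pools from 48.1 to 54.

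Igfbp3 (gene ID 16009) binds both IGFs in a complex with the acid-labile subunit and is a common target of growth-regulating signals. Its single probe set read 97.4, 95, 105.8, 84.1 and 145 in SCARKO pools, against 79.3, 72.3, 71.2, 77.6 and 89.1 in control pools. SCARKO pool 5 was the highest of all 10 and only SCARKO pool 4 lay below a control pool, that of pair 5. The mean was 105.5 ± 23.4 in SCARKO and 77.9 ± 7.14 in control pools (SD, n = 5 each). Igfbp3 rose by 0.42 on the log2 scale (SE 0.086, 95% interval of the fold 1.17 to 1.52, limma adjusted p = 0.0184), in all 5 pairs.

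Within pairs the log2 ratio of Igfbp3 ranged from 0.12 in pair 4 to 0.70 in pair 5. The call ended without pair 3 (adjusted p = 0.083) or pair 5 (adjusted p = 0.080), and without the block (adjusted p = 0.093), with log2 fold changes of 0.38, 0.34 and 0.42. By the log2 signal over the 10 arrays, the genes most like Igfbp3 among 7973 were Cpxm1, Prkacb and Ugcg, with Pearson r of 0.95, 0.94 and 0.92. The arrays of a pair share a litter, and none of these genes was called (limma adjusted p of 0.33, 0.51 and 0.096).

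Igfbp4 (gene ID 16010), which is cut by PAPP-A, had 6 kept probe sets. The brightest, 1437405_a_at, read 598.5, 580.8, 604.2, 549.1 and 582.6 in SCARKO pools and 663.1, 453.7, 509.1, 597.6 and 542.9 in control pools. Control pools 1 and 2 were the highest and the lowest of all, and the fold was 1.06 (95% interval 0.956 to 1.18, limma adjusted p = 0.52).

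Of the other Igfbp4 probe sets, 1437406_x_at was called. It read 380.3, 182.6, 335.7, 405.2 and 216.7 in SCARKO pools, against 448.2, 93, 191, 239.8 and 145.5 in control pools. Both groups spread over more than their difference, and 4 of 5 pairs were higher in SCARKO, with a log2 ratio of 0.57 in pair 5, while pair 1 had -0.24. It rose by 0.58 on the log2 scale (SE 0.13, limma adjusted p = 0.032). Leaving out pair 2, 3, 4 or 5 ended the call (adjusted p = 0.079 to 0.13), as did leaving out the block (adjusted p = 0.44). In the array's naming, the ending x_at marks probes that can also match other transcripts. The remaining probe sets had log2 fold changes of 0.04 to 0.14 at limma adjusted p of 0.51 to 0.80.

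Igfbp2 (gene ID 16008), a binding protein with a preference for IGF-2, read 235.7, 207.1, 259.9, 234.4 and 267.5 in SCARKO pools and 231.4, 231.3, 239.9, 205.4 and 188.3 in control pools. Pair 5 differed most, with a log2 ratio of 0.51, and pair 2 pointed the other way at -0.16. The fold was 1.10 (95% interval 0.973 to 1.24, limma adjusted p = 0.37).

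Igfbp5 (gene ID 16011), a binding protein that attaches to the extracellular matrix, read 61.2, 44.4, 41.6, 34.8 and 60.3 in SCARKO pools and 59.9, 32.6, 47, 45.4 and 58.4 in control pools. Pools of pairs 1 and 5 were the highest in both groups. The fold was 0.995 (95% interval 0.838 to 1.18, limma adjusted p = 0.98), and the second probe set was too dim to test, at 11 to 18.1 in SCARKO and 9.7 to 23.2 in control pools.

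Igfbp6 (gene ID 16012), which strongly prefers IGF-2, read 488.3, 411.3, 497, 480.5 and 480.7 in SCARKO pools and 439.2, 422.5, 455.4, 451.1 and 451.6 in control pools. In every pair but pair 2 the SCARKO pool was the higher, and 4 SCARKO pools lay above all control pools. The fold was 1.06 (95% interval 0.993 to 1.13, limma adjusted p = 0.30).

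Igfbp7 (gene ID 29817), a related secreted protein with low affinity for IGFs, read 537.4, 518.2, 588, 515.2 and 609.3 in SCARKO pools and 561.1, 527, 531.5, 451 and 556.5 in control pools. Pairs 1 and 2 were lower in SCARKO and pairs 3, 4 and 5 higher. The fold was 1.05 (95% interval 0.981 to 1.13, limma adjusted p = 0.40). Its other probe sets were too dim to test, at 13.1 to 17 and 0.7 to 2.4 in SCARKO and at 11.5 to 16.1 and 0.9 to 3.8 in control pools.

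The 95% intervals of the 9 members that were not called, each by its brightest probe set, lay between folds of 0.758 and 1.24. A larger change in the whole-testis signal of these probe sets was outside these intervals, while smaller ones were not called with 5 pairs. Only the interval of Igf1, 0.758 to 0.988, left out 1 (limma adjusted p = 0.20), and the intervals are not adjusted for the number of probe sets. The called second probe set of Igfbp4 had an interval of 1.22 to 1.83, which reaches beyond this range.

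**Figure D2:**
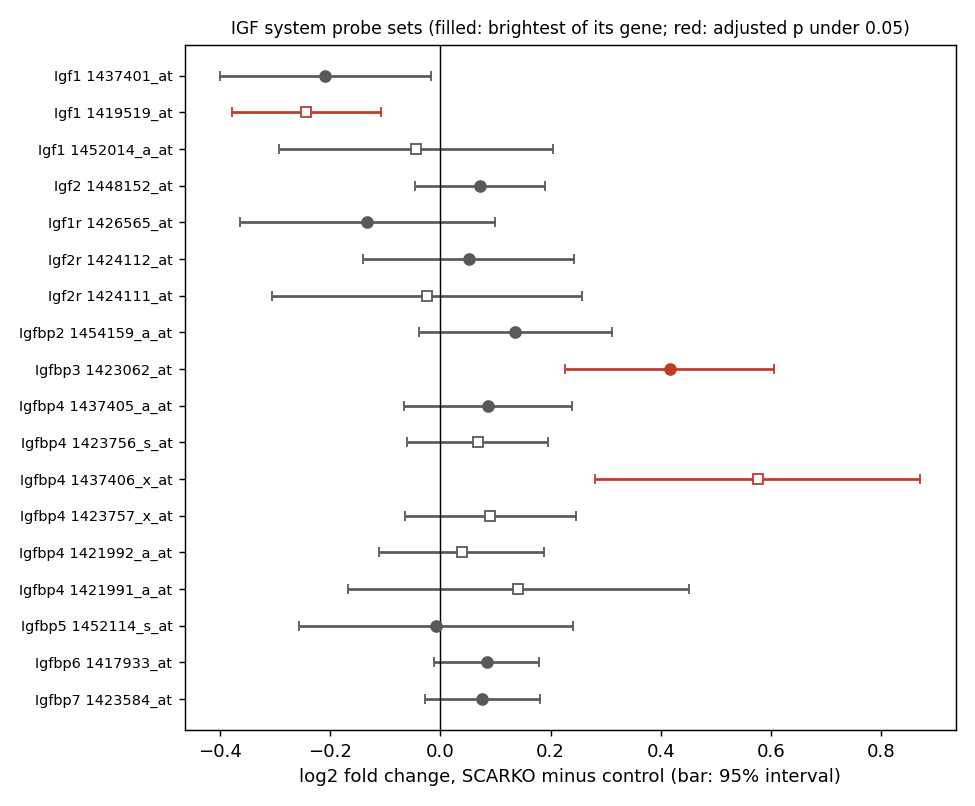
Log2 fold change (SCARKO minus control) of the 18 kept member probe sets with 95% intervals; filled circles are the brightest probe set of a gene and open squares the others. Igfbp3 lies at 0.42, while for Igfbp4 the called probe set at 0.58 stands beside 5 that lie at 0.04 to 0.14.

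Proteins that partner or cut IGF binding proteins, with relatives that carry an IGF-binding-protein-like domain, were followed as a list of 18 genes, of which 16 had a probe set of their own and 10 passed the filter. Of these, 4 rose, 0 fell and 6 were not called, with a median log2 fold change of 0.20 against 0.015 over all genes, where 2.17% of genes were called higher. The list was written with earlier results of these data known, so its direction is a description.

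Pappa (gene ID 18491), the metalloprotease that cuts Igfbp4 when IGF is bound, read 45, 47.5, 41.1, 49.2 and 39.7 in SCARKO pools, against 30.8, 34.1, 35.1, 36.8 and 29.7 in control pools. Every SCARKO pool lay above every control pool, as for 2.03% of all kept probe sets. It rose by 0.42 on the log2 scale (SE 0.092, limma adjusted p = 0.0238), and by 0.42 in pair 5. The call ended without pair 1, 2, 4 or 5 (adjusted p = 0.055 to 0.079).

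Htra1 (gene ID 56213), a secreted serine protease with an IGF-binding-protein-like domain, read 284.5, 243.9, 283, 278.2 and 241.6 in SCARKO pools, against 188, 230.4, 220.7, 187.7 and 191.9 in control pools. The groups did not overlap, and pair 2 differed least. It rose by 0.39 on the log2 scale (SE 0.072, limma adjusted p = 0.0104), and by 0.33 in pair 5, and its second probe set, which ends in x_at, also rose, by 0.38 (adjusted p = 0.0098). The first call held without any 1 pair (adjusted p = 0.0022 to 0.0465).

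Ccn1 (gene ID 16007), a matricellular protein once named Igfbp10 for this domain, read 43, 53.9, 49.2, 45.7 and 57.5 in SCARKO pools, against 30.2, 40.5, 28.9, 29.8 and 42.6 in control pools. SCARKO pool 1 was only just above the highest control pool, that of pair 5. It rose by 0.55 on the log2 scale (SE 0.092, limma adjusted p = 0.0064), and by 0.43 in pair 5, and its other probe set rose by 0.58 (adjusted p = 0.0204). The first of these ends in x_at, so its probes can match other transcripts. The first call held without any 1 pair (adjusted p = 0.0106 to 0.033) and without the block (adjusted p = 0.0367).

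Ccn2 (gene ID 14219), the connective tissue growth factor, read 430.7, 372.2, 397.8, 357.4 and 507.9 in SCARKO pools, against 367.2, 298.8, 329.7, 285.2 and 381.4 in control pools. The groups overlapped, but within pairs the log2 ratios were close together, from 0.23 to 0.41, the highest in pair 5. It rose by 0.31 on the log2 scale (SE 0.045, limma adjusted p = 0.0030), a call that held without any 1 pair (adjusted p = 0.0061 to 0.018) and ended without the block (adjusted p = 0.13). Stc1, which encodes stanniocalcin 1, an inhibitor of PAPP-A, had a log2 fold change of 0.27 (limma adjusted p = 0.17). The related Stc2 pointed the other way, at -0.08 (limma adjusted p = 0.74).

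**Figure D3:**
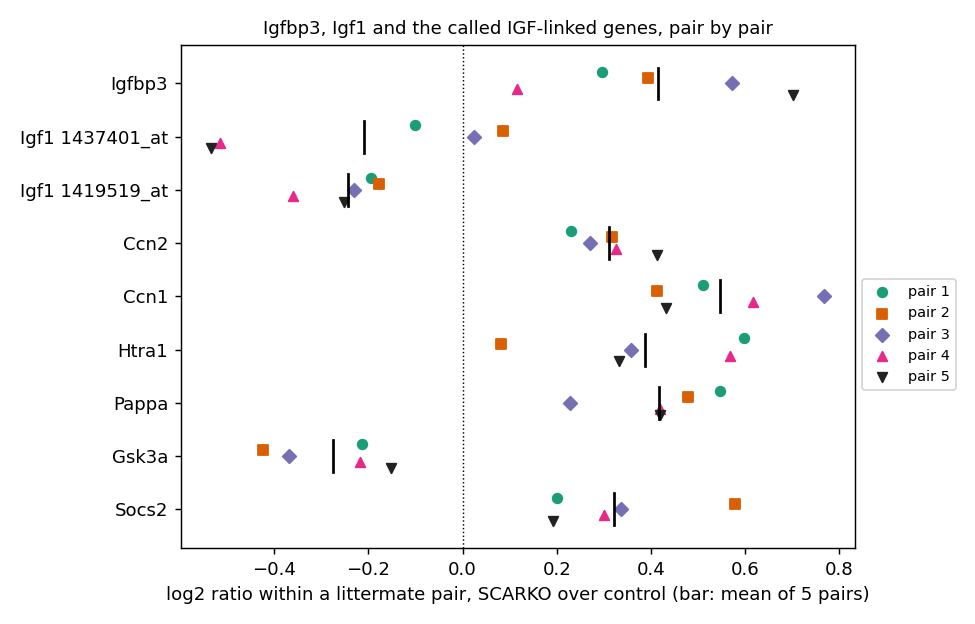
Log2 ratio of SCARKO over control within each of the 5 littermate pairs for Igfbp3, for 2 Igf1 probe sets and for the called genes of the related lists; the black bar is the mean of the pairs. The brightest Igf1 probe set spreads across 0, while the others keep 1 sign in all 5 pairs.

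Of 27 genes of insulin and IGF receptor signalling that passed the filter, 1 fell, 0 rose and 26 were not called, and 5 had an unadjusted p under 0.05, with a median log2 fold change of -0.003. Over all genes 3.52% were called lower and 21.7% had an unadjusted p under 0.05, so these counts are near the background. Gsk3a (gene ID 606496), a kinase that insulin signalling inhibits through Akt, read 116.9, 126, 142.8, 146.5 and 115 in SCARKO pools, against 135.5, 169.1, 184.4, 170.3 and 127.8 in control pools. Each SCARKO pool was below its littermates, although the groups overlapped. It fell by 0.28 on the log2 scale (SE 0.061, limma adjusted p = 0.0256), and by 0.15 in pair 5. Leaving out pair 1, 2, 3 or 4 ended the call (adjusted p = 0.054 to 0.11), as did leaving out the block (adjusted p = 0.22).

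Irs1, an adaptor that carries the receptors' signal, had a log2 fold change of 0.33 (SE 0.094, limma adjusted p = 0.065), higher in 4 of 5 pairs. Without pair 2 it was called (log2 fold change 0.44, limma adjusted p = 0.0106). Eif4ebp1, a translation repressor that mTOR phosphorylates, read by a probe set ending in x_at, had a log2 fold change of 0.18 (limma adjusted p = 0.067). With the mean over a gene's kept probe sets in place of the brightest, both Irs1 (0.33, adjusted p = 0.0457) and Eif4ebp1 (0.21, adjusted p = 0.0171) were called higher.

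Of 7 genes of growth hormone and prolactin receptor signalling that passed it, 1 rose, 0 fell and 6 were not called. Their median log2 fold change was 0.14, against 0.015 over all genes, of which 2.17% were called higher and 3.52% lower. Socs2 (gene ID 216233), a feedback inhibitor of the growth hormone receptor that STAT5 induces, read 255.4, 243, 220.3, 229.9 and 247.9 in SCARKO pools, against 222.3, 162.8, 174.5, 186.8 and 216.9 in control pools. All but SCARKO pool 3 lay above every control pool, and SCARKO was higher in all 5 pairs. It rose by 0.32 on the log2 scale (SE 0.063, limma adjusted p = 0.0136), and by 0.19 in pair 5, and its second probe set also rose, by 0.33 (adjusted p = 0.0134). The first call ended without pair 3 (adjusted p = 0.056) and without the block (adjusted p = 0.056). Stat5b and the growth hormone receptor gene Ghr were higher in all 5 pairs without passing, each with a log2 fold change of 0.18 (limma adjusted p of 0.15 and 0.19). The rest of the list, Stat5a, Socs3, Jak2 and Cish, had log2 fold changes of 0.14, 0.11, -0.05 and -0.02 (limma adjusted p of 0.49, 0.78, 0.74 and 0.94).

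Of 11 genes of the IGF2 mRNA-binding and imprinted growth network that passed it, 0 passed limma's test. An unadjusted p under 0.05 was found for 3 of them, where 21.7% of all genes had one. The log2 fold change was positive for 10 (90.9%, median 0.10), against 55.0% of all genes. The smallest p belonged to Ndn, Dcn and Cdkn1c, with log2 fold changes of 0.30, 0.10 and 0.23 (limma adjusted p of 0.11, 0.20 and 0.23). Ndn, read by a probe set ending in x_at, encodes necdin, Dcn the proteoglycan decorin and Cdkn1c a cell cycle inhibitor. Of 7 insulin relatives with a probe set of their own, 6 were too dim to be tested, and Ins2 was tested by a probe set ending in x_at, with a log2 fold change of 0.35 (limma adjusted p = 0.16).

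**Figure D4:**
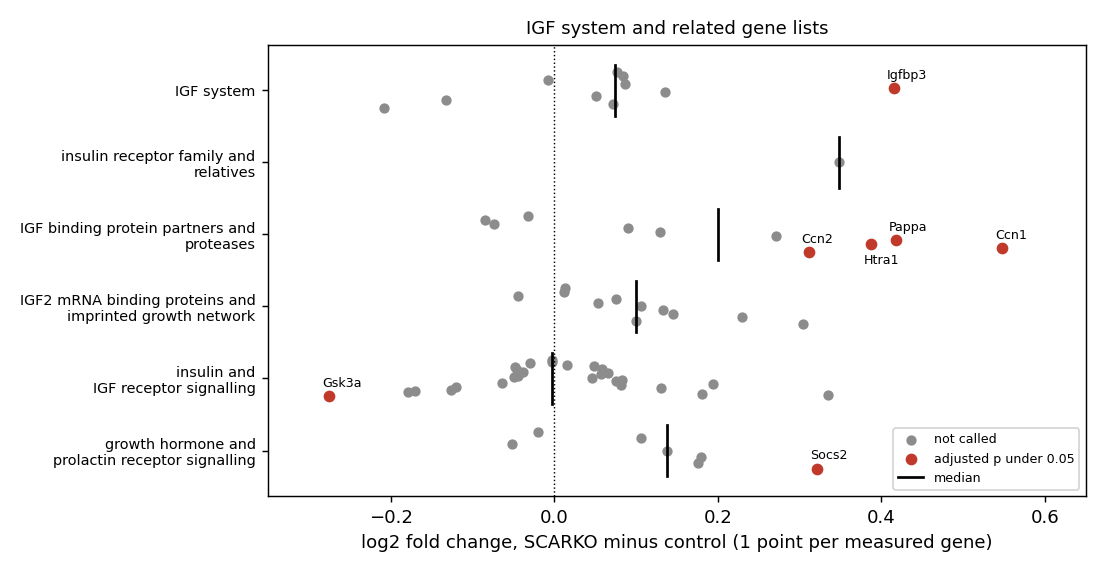
Log2 fold change (SCARKO minus control) of every gene past the filter in the IGF system and the related lists, 1 point per gene, with called genes in red and the list median as a bar. The list of partners, proteases and relatives has 4 called genes, all higher, against 1 in the IGF system. Over all genes, 2.17% were called higher and 3.52% lower. The lists were written with earlier results of these data known, so the counts are a description.

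Markers of the cell types that make IGF components were read beside these results. Summed signals of every marker list overlapped between the groups. Within pairs, macrophage sums were higher in SCARKO in 5 of 5 pairs, with 7 of 7 genes at a positive log2 fold change, and peritubular myoid sums were lower in 4 of 5 pairs, with 6 of 7 genes negative. Endothelial sums were higher in 4 of 5 pairs, with 3 of 6 genes positive, Leydig cell sums in 3 of 5 and fibroblast sums in 2 of 5. They were 895 to 1266 in SCARKO and 864 to 1160 in control pools for 5 Leydig cell genes, and 2547 to 2972 against 2880 to 3263 for 7 peritubular myoid genes. For 7 macrophage genes the sums were 445 to 537 in SCARKO and 382 to 526 in control pools, for 6 endothelial genes 233 to 280 and 213 to 277, and for 6 fibroblast genes, Dcn among them, 4679 to 5732 and 4490 to 5758. In these 5 lists 0 genes passed limma's test, and 1, 2, 2, 1 and 1 had an unadjusted p under 0.05. Over all genes, 21.7% had an unadjusted p under 0.05, 2.17% were called higher and 3.52% were called lower. Of 9 Sertoli cell genes, 1 fell (Cldn11, log2 fold change -0.68) and 2 rose (Kitl, 0.24, and Fshr, 0.42), with 5 at an unadjusted p under 0.05. The Sertoli cell sums were 3009 to 3194 in SCARKO and 3025 to 3316 in control pools, lower in 4 of 5 pairs. Cldn11 alone had a mean of 328.3 in SCARKO and 527.1 in control pools, while 5 of the 9 genes had a positive log2 fold change. Of 10 germ cell genes 1 fell (Stag3, log2 fold change -0.42), with 5 at an unadjusted p under 0.05. The germ cell sums were 3988 to 4753 in SCARKO and 3871 to 5084 in control pools, but joined genes of opposite sign. The 4 negative genes were Stag3, Tex101 (-0.29), Dmc1 (-0.29) and Sycp3 (-0.21). The 6 positive genes were Zbtb16 (0.20), Uchl1 (0.13), Kit (0.13), Dazl (0.06), Ddx4 (0.04) and Stra8 (0.02). None of these genes was at 0 on any array, and the 4 markers of epididymis and fat on the array were all too dim to be kept. The part of cell composition in the changes of Igfbp3, Igf1 and the related genes was not tested.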

How the data were processed

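Affymetrix arrays measured RNA of 10 testis pools, 5 SCARKO and 5 control. The deposited values were linear signal intensities per probe set, with MAS5 named in the submitters' processing notes for 8 arrays and no tool for the 2 arrays of pair 5. The mean after trimming 2% at each end was 100 on all arrays, and the number of arrays limits the precision. Groups and pair numbers came from the titles. Genes were named by the platform's annotation and updated to symbols of GRCm38.p6 through gene identifiers. Of 22626 probe sets besides 64 array controls, 20380 named 1 gene, 691 several and 1555 none.

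Signals were floored at 1 and transformed to log2 without another normalization. The dimmest 40% of probe sets by mean log2 were dropped, a limit of 19.3 in signal, so that 13576 were tested. The fit used limma 3.58.1 under R 4.3.3 (pair as a block, intensity trend, two-sided), and log2 fold changes are SCARKO minus control. The code was tested on simulated data. The brightest kept probe set stood for a gene.

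The pairs are littermate pools per the labels' protocols, and same-numbered pools deviated together from their group means (correlation across probe sets 0.27, 0.19, 0.19, 0.11 and 0.39 for pairs 1 to 5, against 0.109 at most with another number for pair 4). The members and gene lists were chosen with earlier results of these data known. Named were all members, the called genes of each related list and up to 3 with the smallest p, and the 3 genes most correlated with a called member. Stc1, Stc2, Stat5a, Socs3, Jak2, Cish and the germ cell genes were named after their values were seen. Marker lists are given as counts and sums, with the called Sertoli cell genes and the germ cell genes named. Alternatives were fits without the block, with 16 added before log2, with no filter or the lowest 60% left out, after quantile normalization, without the intensity trend, without each pair, with gene means over probe sets and with groups from the descriptions.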

Additional observations from a re-analysis of the deposited data

Results flagged for a closer look

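In 64 groups of 5 pools, 4 held a pool that stood far from the other 4 by the ratio of its gap to the range of log2 signals. There was 1 group for each genotype and each kept member probe set. The same was done for genes of the related lists that were called or among the 3 with the smallest p of their list. Member probe sets too dim to be kept were not looked at. Chance flags about 1 group in 20, so 4 of 64 is about what chance gives. Igfbp6 read 411.3 in SCARKO pool 2, against 480.5 to 497 in the other SCARKO pools. Igf1 probe set 1452014_a_at read 56.4 in SCARKO pool 5, against 68.1 to 73 in the others. Igfbp7 read 451 in control pool 4, against 527 to 561.1 in the other control pools. Ndn read 305 in control pool 3, against 493.8 to 519.3 in the others, and its log2 fold change was 0.15 without pair 3, against 0.30 with it.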

How the results depend on the processing

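Igfbp3 was called higher after adding 16 before log2, with the lowest 60% left out, after quantile normalization, with gene means and without pair 1, 2 or 4. The count of members called higher was 0, against 1, without the replicate block (adjusted p of Igfbp3 0.093), without the filter on dim probe sets (0.14), without the intensity trend (0.061) and with groups from the descriptions, and it was 0 to 1 when 1 pair was left out. The count called lower was 0 in all of these fits. By any kept probe set, a count added after the data were seen, 1 member was lower and 2 higher. The added calls were of Igf1 and Igfbp4, which have several kept probe sets and so more chances of a call. The share of all genes called by this rule was not counted, so this count has no background to be read against. Over all probe sets, 442 were called lower and 262 higher in SCARKO. These counts were 283 and 121 without the replicate block, 31 and 7 without the filter, 212 and 109 without the trend, 0 and 0 with groups from the descriptions (with 611 probe sets at an unadjusted p under 0.05), and 213 to 485 and 91 to 258 when 1 pair was left out. Without the filter the fit itself also changed, with an unadjusted p of 0.0042 for Igfbp3, against 0.0005 with it; the cause was not tested. Of the called genes, Ccn1, Ccn2, Htra1, Pappa, Socs2, Gsk3a and both second probe sets of Igf1 and Igfbp4 lost their call without the filter, and Htra1, Socs2, Gsk3a and these 2 probe sets also without the trend (adjusted p = 0.062 to 0.12).

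The descriptions give genotypes that the Rhox5 signals of pairs 1 to 4 went against. With these genotypes, signs turned for most genes, with no call. Log2 fold changes of members were then 0.12 for Igf1r, -0.16 for Igf2r, -0.14 for Igfbp3, -0.046 for Igfbp4, 0.026 for Igfbp5, -0.048 for Igfbp6 and -0.024 for Igfbp7, 0.14 for Igf1 probe set 1419519_at and -0.35 for Igfbp4 probe set 1437406_x_at. They were -0.37 for Ccn1, -0.15 for Ccn2, -0.25 for Htra1, -0.25 for Pappa, -0.24 for Socs2 and 0.21 for Gsk3a. Genes not called had -0.39 for Ins2, -0.27 for Ndn, -0.034 for Dcn, -0.12 for Cdkn1c, -0.21 for Irs1, -0.052 for Eif4ebp1, -0.10 for Stat5b and -0.11 for Ghr. Members near 0 also turned when 1 pair was left out, Igf2r (-0.036 without pair 1, in a range up to 0.13) and Igfbp5 (0.035 without pair 3 and 0.087 without pair 4, in a range down to -0.12). With the lowest 60% left out, Igf1r, Igfbp5, Ins2, Ccn1 and Pappa were too dim to be fitted.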
